A study of Homo sapiens with 12 samples.

Results

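The genes described are 9 members of the insulin and insulin-like growth factor (IGF) pathway, IRS1, IRS2, INSR, IGF1R, IGFBP3, IGFBP4, IGFBP5, FOXO1 and PIK3R1, chosen by name from the 18417 genes that have a probe set with 1 symbol. They are read by 10 of the 33297 probe sets of the array (IGF1R by 2, each other gene by 1), and a gene with several is given by its brightest probe set, that is by the highest mean over the 12 arrays. The 9 were chosen with earlier results of these data known. All 9 were measured, and no filter on low values was applied. The cells were T47D-MTVL, human breast cancer cells that make progesterone receptor and carry a stably integrated reporter driven by the MMTV promoter. All were starved of serum for 48 h and then given for 6 h either 10 nM R5020, a synthetic progestin, or its ethanol vehicle (EtOH). Before that they had received siCHD8, an siRNA against the chromatin remodeller CHD8, or siCt, a control siRNA. The 4 conditions, siCHD8 with R5020, siCHD8 with EtOH, siCt with R5020 and siCt with EtOH, had 3 arrays each, which the labels call biological replicates. The sources used here do not say whether these came from separate cultures, so p-values measure the spread between these arrays. A single siRNA sequence against CHD8 was used for the arrays and all cells are of a single line, which limits the conditions as a model.

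Insulin and the IGFs bind the receptor tyrosine kinases INSR and IGF1R, which phosphorylate the docking proteins IRS1 and IRS2. These recruit phosphoinositide 3-kinase (PI3K), whose regulatory subunit is encoded by PIK3R1, and the lipid it makes activates the kinase AKT. AKT in turn keeps the transcription factor FOXO1 out of the nucleus, and the secreted proteins IGFBP3, IGFBP4 and IGFBP5 hold IGFs in the extracellular fluid and limit or present them to the receptor. In breast epithelium this pathway acts together with ovarian steroids in growth and survival.

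The promoters of the 4 members that passed the test for R5020 are shown here because these genes moved together, IGF1R and PIK3R1 up and IGFBP4 and IGFBP5 down. Each line gives the 250 bases before an annotated start site, from RefSeq (GRCh38.p14), read 5′ to 3′ along the gene's strand, at chr15:98648289-98648538 (plus strand) for IGF1R, chr5:68290414-68290663 (plus strand) for the third of 4 windows listed for PIK3R1, chr17:40443200-40443449 (plus strand) for IGFBP4 and chr2:216695550-216695799 (minus strand) for IGFBP5. Capitals mark TGTTCT, the half-site of the progesterone receptor element, or CTGTNC, the motif that the study derived from CHD8-bound regions in hormone-treated cells, on either strand.
IGF1R: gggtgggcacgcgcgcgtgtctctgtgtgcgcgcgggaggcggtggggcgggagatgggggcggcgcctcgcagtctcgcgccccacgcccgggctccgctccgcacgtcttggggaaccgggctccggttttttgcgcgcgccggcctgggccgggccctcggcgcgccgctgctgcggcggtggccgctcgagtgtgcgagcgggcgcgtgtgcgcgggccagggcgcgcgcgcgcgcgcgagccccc
PIK3R1: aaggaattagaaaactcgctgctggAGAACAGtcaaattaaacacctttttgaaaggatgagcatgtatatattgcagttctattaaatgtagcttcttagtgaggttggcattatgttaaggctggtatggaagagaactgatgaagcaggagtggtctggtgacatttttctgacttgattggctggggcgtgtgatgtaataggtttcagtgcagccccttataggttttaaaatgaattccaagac
IGFBP4: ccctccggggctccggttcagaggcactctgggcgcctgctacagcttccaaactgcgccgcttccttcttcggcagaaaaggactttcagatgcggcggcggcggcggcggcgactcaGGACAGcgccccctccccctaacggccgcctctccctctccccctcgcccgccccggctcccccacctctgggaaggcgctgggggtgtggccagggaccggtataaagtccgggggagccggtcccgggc
IGFBP5: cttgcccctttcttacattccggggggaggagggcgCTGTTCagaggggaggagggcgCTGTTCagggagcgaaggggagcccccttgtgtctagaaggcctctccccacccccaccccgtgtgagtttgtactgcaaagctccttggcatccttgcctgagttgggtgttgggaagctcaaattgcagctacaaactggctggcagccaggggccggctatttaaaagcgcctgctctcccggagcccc
All 9 members matched the promoter table, in 12 windows, of which PIK3R1 has 4. TGTTCT was in 1 of these 12 windows, the PIK3R1 window shown, and in 12.4% of all 35116 windows of the same length. CTGTNC, which overlaps TGTTCT where they share letters, as it does in PIK3R1, was in 5 of the 12 windows (IRS1, INSR, IGFBP4, IGFBP5 and the PIK3R1 window shown) and in 41.7% of all windows. The FOXO recognition sequence GTAAACA was in none of the 12 windows and in 3.0% of all windows. Of the 4 PIK3R1 windows, only the window shown holds TGTTCT or CTGTNC, and the windows of this gene that are not shown hold neither. The IGFBP5 window holds CTGTNC 2 times, starting at -214 and -192 from the start site. The IGF1R window, 81.2% G and C, holds none of these letters, and the IGFBP4 window holds 1 CTGTNC, at -131. A match describes letters in these windows and is not a binding site. In the study, most hormone-induced CHD8 sites lay in introns or between genes, with little enrichment at start sites.

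Values are the deposited log2 intensities, which the authors had normalized. A linear model (limma) was fitted to the 12 arrays over the 21214 probe sets with at least 1 gene symbol, and a gene was called at an adjusted p (Benjamini-Hochberg over all of them) under 0.05. Across arrays the median log2 intensity lay between 4.52 and 4.62, and Pearson's r across probe sets, which are not independent, was 0.989 to 0.996 within a condition and 0.976 to 0.994 between conditions. CHD8 itself, the siRNA target, differed by -0.58 (SE 0.13) between siCHD8 and siCt with EtOH and by -0.62 (SE 0.13) with R5020, and the 3 siCHD8 arrays lay below the 3 siCt arrays both times. How many of all probe sets separate in this way between siCHD8 and siCt was not counted. The adjusted p of CHD8 was 0.0711 and 0.0627, so that neither passed 0.05. The study also reports the depletion of CHD8 by Western blot and RT-qPCR, which were not used here. CHD8 was also lower with R5020 than with EtOH, by a log2 change of -0.46 (adjusted p = 0.0258) in siCHD8 and -0.42 (adjusted p = 0.0349) in siCt, and these changes were called. The calls were lost in 7 of 22 other settings in siCHD8, among them without EtOH replicate 1 (adjusted p = 0.0961) or R5020 replicate 1 (0.0626), 2 (0.116) or 3 (0.050011), and in 6 of 22 in siCt, among them without EtOH replicate 1 (0.0557) or 3 (0.118) or R5020 replicate 2 (0.119) or 3 (0.118). Markers of luminal breast cells averaged between 6.95 and 11.07 log2, those of fibroblasts between 1.52 and 5.48 and those of blood and endothelium between 1.16 and 2.89. Summed over 9 luminal markers, the linear signal was 7337 to 7566 in siCHD8 with R5020, 8444 to 9682 in siCHD8 with EtOH, 7390 to 8106 in siCt with R5020 and 9842 to 10462 in siCt with EtOH. This list had 6 of 9 members called lower with R5020 in siCHD8 and 5 of 9 in siCt, against 5.43% and 6% of all probe sets, and its part in the results below was not tested. Over 6 fibroblast markers the sum was 82.6 to 83.7 in siCHD8 with R5020, 89.6 to 101.6 in siCHD8 with EtOH, 68.6 to 76.1 in siCt with R5020 and 81.2 to 93.3 in siCt with EtOH, and the 6 blood and endothelial markers summed to between 26.55 and 32.4 on every array. Their part was not tested either. In bulk RNA, fewer cells of a type and less RNA per cell cannot be told apart.

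R5020 raised the receptor gene IGF1R and the PI3K subunit gene PIK3R1 and lowered the binding protein genes IGFBP4 and IGFBP5, in siCHD8 as in siCt cells. FOXO1, INSR, IRS1, IRS2 and IGFBP3 did not pass the test in either. Averaged over the arrays, INSR (3.82 log2) and IGFBP3 (4.05) lay below every array median, and IRS2 (4.69) and IRS1 (4.80) just above. FOXO1 averaged 6.39, and the 4 that passed averaged between 7.52 and 11.26. Whether low signal hid a change in the dimmer genes was not tested. In siCHD8, 4 of 9 members passed (2 higher, 2 lower), against 11.5% of all probe sets tested (6.04% higher, 5.43% lower). In siCt the same 4 passed, again 2 higher and 2 lower, where 14.1% of all probe sets passed (8.1% higher, 6% lower). The members, like the gene lists below, were chosen with earlier results of these data known. Such counts therefore cannot show that the pathway responds more often than other genes. The members' median change was 0.03 in siCHD8 and 0.01 in siCt, against -0.02 and -0.05 over all probe sets tested. The plot of the members on each array shows the 4 conditions side by side.

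**Figure D1:**
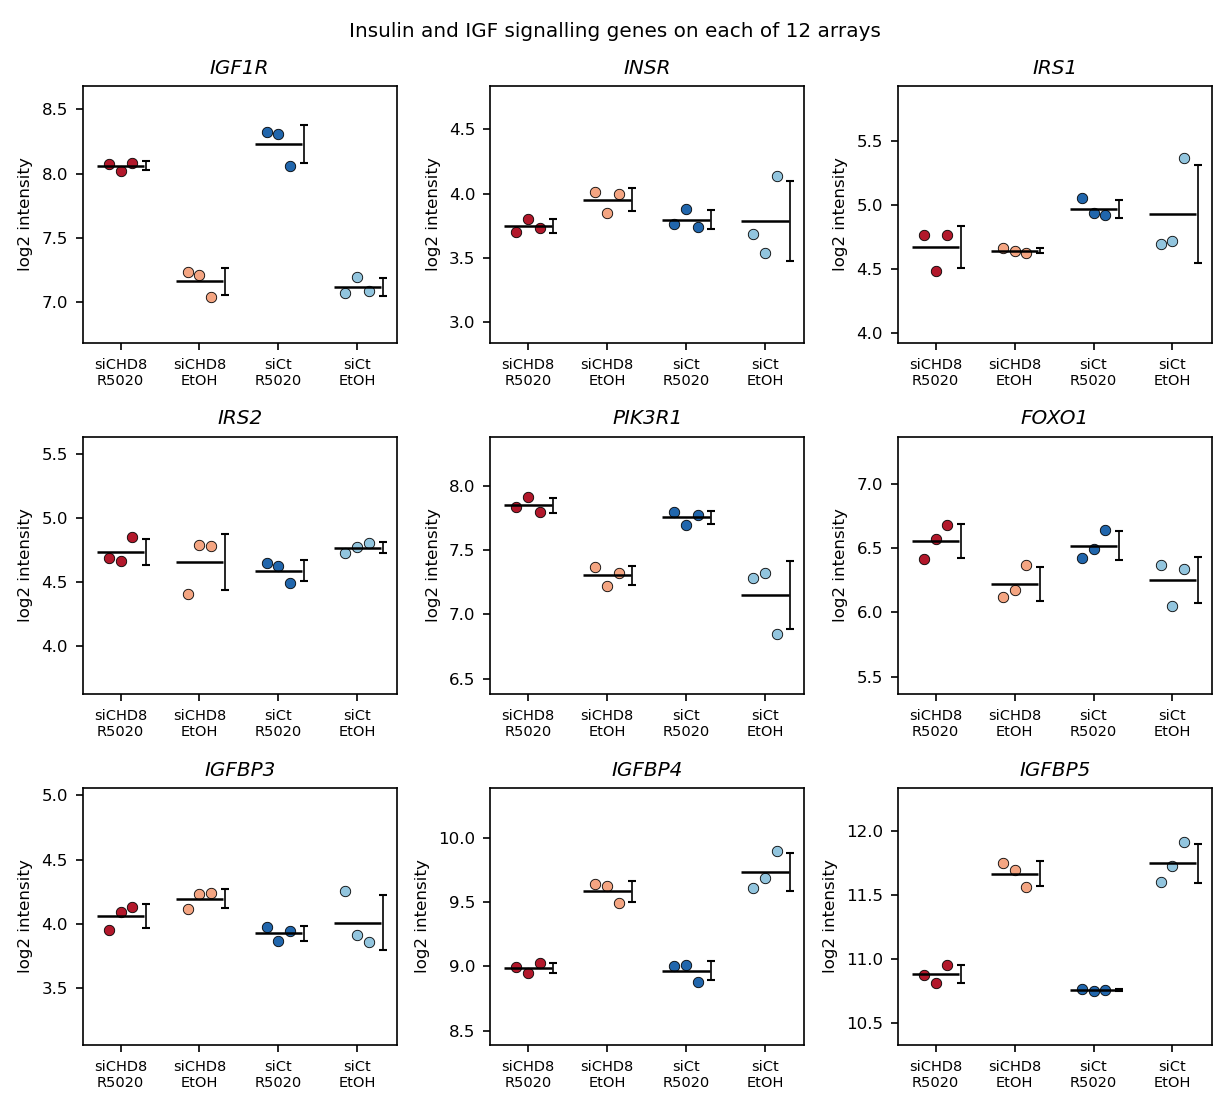
Log2 intensity of the 9 members (brightest probe set) on each of the 12 arrays, by condition, with siCHD8 left and siCt right and R5020 left of EtOH in each. Points are arrays (replicates 1 to 3 from left to right), horizontal lines are means and vertical bars are SD (n = 3), and every panel spans 2 log2 units. For IGF1R and PIK3R1 the R5020 arrays lie above the EtOH arrays, and for IGFBP4 and IGFBP5 below, in both siCHD8 and siCt.

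IGF1R, which encodes the IGF-1 receptor, had log2 intensities of 8.07, 8.02 and 8.09 with R5020 in siCHD8, against 7.24, 7.21 and 7.04 with EtOH. In siCt the values were 8.33, 8.31 and 8.06 with R5020, against 7.07, 7.20 and 7.08 with EtOH. In both siRNA backgrounds the lowest R5020 array exceeded the highest EtOH array. The change was 0.90 (95% interval 0.67 to 1.13, SE 0.11, adjusted p = 3.31e-05 from limma) in siCHD8, a linear ratio of 1.86, and 1.11 (95% interval 0.89 to 1.34, SE 0.11, adjusted p = 3.13e-06) in siCt, a linear ratio of 2.16. The second IGF1R probe set, 7986383, read 5.82, 5.80 and 5.89 with R5020 in siCHD8, against 5.41, 5.36 and 4.93 with EtOH, and 5.98, 6.16 and 6.03 with R5020 in siCt, against 4.92, 4.76 and 5.70 with EtOH. It rose in siCt by 0.93 (adjusted p = 0.00411), and in siCHD8 its change was 0.61 (adjusted p = 0.0603). Array siCt EtOH replicate 3 was the highest EtOH array of this probe set. Without it the change in siCHD8 stayed at 0.61 and had an adjusted p of 0.00545, and without siCt EtOH replicate 2 one of 0.0383. The siCt arrays enter this comparison only through the shared estimate of the spread. This probe set also passed in siCHD8 with dim probe sets left out (0.0434), trended and robust variance (0.0451), array weights (0.0211) and the 2 conditions compared alone (0.0211). These were the only 6 of 20 other settings in which it passed in siCHD8. In the other 14 it was not called, with an adjusted p of up to 0.211.

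INSR, the insulin receptor gene, read 3.70, 3.80 and 3.74 with R5020 in siCHD8, against 4.01, 3.85 and 4.0003 with EtOH, and 3.77, 3.88 and 3.74 with R5020 in siCt, against 3.68, 3.54 and 4.14 with EtOH. In siCHD8 the R5020 arrays lay below the EtOH arrays without overlap, a difference of -0.21 (95% interval -0.50 to 0.08) with an adjusted p of 0.421. In siCt they overlapped, with a difference of 0.01 (95% interval -0.28 to 0.30, adjusted p = 0.974). The arrays of R5020 and EtOH did not overlap for 27.2% of all probe sets in siCHD8 and for 33.9% in siCt.

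Of the docking proteins, IRS1 had changes of 0.03 (95% interval -0.30 to 0.36) in siCHD8 and 0.04 (95% interval -0.29 to 0.37) in siCt. Its arrays read 4.77, 4.48 and 4.76 with R5020 in siCHD8, against 4.67, 4.64 and 4.63 with EtOH, and 5.05, 4.93 and 4.92 with R5020 in siCt, against 4.70, 4.72 and 5.37 with EtOH. The siCt EtOH values were split by replicate 3, which was far above the other two. IRS2 read 4.69, 4.67 and 4.85 with R5020 in siCHD8, against 4.41, 4.79 and 4.78 with EtOH, a change of 0.08 (95% interval -0.17 to 0.33, adjusted p = 0.789). In siCt it read 4.65, 4.62 and 4.49 with R5020, against 4.72, 4.78 and 4.81 with EtOH. These siCt arrays did not overlap, as was so for 33.9% of all probe sets in siCt. The IRS2 difference of -0.18 (95% interval -0.43 to 0.07) had an adjusted p of 0.34. With 3 arrays per condition no change was detectable in either gene.

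PIK3R1, the alpha regulatory subunit of PI3K, read 7.84, 7.91 and 7.80 with R5020 in siCHD8, against 7.37, 7.23 and 7.32 with EtOH. In siCt it read 7.80, 7.70 and 7.77 with R5020, against 7.28, 7.32 and 6.85 with EtOH. The 3 R5020 arrays were above the 3 EtOH arrays in both, and the siCt EtOH arrays were spread by replicate 3. The change was 0.54 (95% interval 0.28 to 0.81, SE 0.12, adjusted p = 0.00817) in siCHD8, a linear ratio of 1.46, and 0.61 (95% interval 0.34 to 0.87, SE 0.12, adjusted p = 0.0032) in siCt, a linear ratio of 1.52. FOXO1, the transcription factor that AKT restrains, read 6.42, 6.57 and 6.68 with R5020 in siCHD8, against 6.12, 6.18 and 6.37 with EtOH, and 6.42, 6.49 and 6.64 with R5020 in siCt, against 6.37, 6.05 and 6.34 with EtOH. All R5020 arrays were above all EtOH arrays in each background. The arrays did not overlap for 27.2% of all probe sets in siCHD8 and for 33.9% in siCt either. The FOXO1 differences, 0.33 (95% interval 0.07 to 0.59) in siCHD8 and 0.27 (95% interval 0.01 to 0.53) in siCt, did not pass the adjustment (adjusted p = 0.105 and 0.169).

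IGFBP4 read 8.998, 8.95 and 9.02 with R5020 in siCHD8, against 9.64, 9.62 and 9.49 with EtOH, and 9.004, 9.01 and 8.88 with R5020 in siCt, against 9.61, 9.69 and 9.90 with EtOH. The gene, whose product binds IGFs and is cut by the protease PAPPA, was lower in every R5020 array than in any EtOH array. The change was -0.60 (95% interval -0.82 to -0.37, SE 0.11, adjusted p = 0.00126) in siCHD8, a linear ratio of 0.662, and -0.77 (95% interval -0.99 to -0.54, SE 0.11, adjusted p = 1.08e-04) in siCt, a linear ratio of 0.588. IGFBP5, whose product binds IGFs and extracellular matrix, read 10.88, 10.81 and 10.95 with R5020 in siCHD8, against 11.75, 11.70 and 11.56 with EtOH. In siCt it read 10.77, 10.76 and 10.76 with R5020, against 11.60, 11.73 and 11.91 with EtOH. All R5020 arrays were lower than all EtOH arrays. The change was -0.78 (95% interval -1.01 to -0.56, SE 0.11, adjusted p = 1.15e-04) in siCHD8, a linear ratio of 0.58, and -0.98 (95% interval -1.21 to -0.76, SE 0.11, adjusted p = 1.08e-05) in siCt, a linear ratio of 0.506. IGFBP3, whose product is the main IGF carrier in serum, read 3.95, 4.09 and 4.13 with R5020 in siCHD8, against 4.11, 4.24 and 4.24 with EtOH, and 3.98, 3.86 and 3.94 with R5020 in siCt, against 4.26, 3.92 and 3.86 with EtOH. Its arrays overlapped, with differences of -0.13 (95% interval -0.38 to 0.11) in siCHD8 and -0.08 (95% interval -0.33 to 0.17) in siCt.

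With stricter limits (adjusted p under 0.01 and a linear fold over 1.5), the same 4 members passed in siCt, where 6.55% of all probe sets did. In siCHD8 PIK3R1 missed the fold limit and 3 of 9 members passed, where 5.6% of all probe sets did. Arrays limit the precision, with a median SE of 0.13 on the log2 scale for 3 arrays against 3.

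The response in siCHD8 minus that in siCt asks whether the members depended on CHD8 for their response. It passed the test for 0 of 9 members and for 0 of 21214 probe sets (0%), while 2027 of these had an unadjusted p under 0.05. The lowest adjusted p of any probe set was 0.356. For the members that moved, the difference was -0.22 (95% interval -0.54 to 0.11) for IGF1R, -0.06 (95% interval -0.43 to 0.31) for PIK3R1, 0.17 (95% interval -0.15 to 0.49) for IGFBP4 and 0.20 (95% interval -0.12 to 0.52) for IGFBP5. For the others it lay between -0.22 for INSR (95% interval -0.62 to 0.19) and 0.26 for IRS2 (95% interval -0.10 to 0.61). The methods call a gene CHD8-dependent where its hormone change in siCHD8 divided by that in siCt is above 1.2 or below 0.8, without stating the scale of the change. With linear folds, a choice made here, the ratios were 0.861 for IGF1R, 0.958 for PIK3R1, 1.13 for IGFBP4 and 1.15 for IGFBP5. None of the 9 brightest probe sets met the rule, IRS2 coming nearest at 1.196, and the second IGF1R probe set met it at 0.7997. With log2 changes divided instead, tried after the data were seen, 7 of the 9 met it. Of the called members these were IGFBP4 (0.778) and IGFBP5 (0.797), while IGF1R (0.807) and PIK3R1 (0.897) did not, and the other 5, FOXO1 at 1.25 among them, had changes that were not called. The outcome of this rule therefore depends on the scale, and it carries no test.

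**Figure D2:**
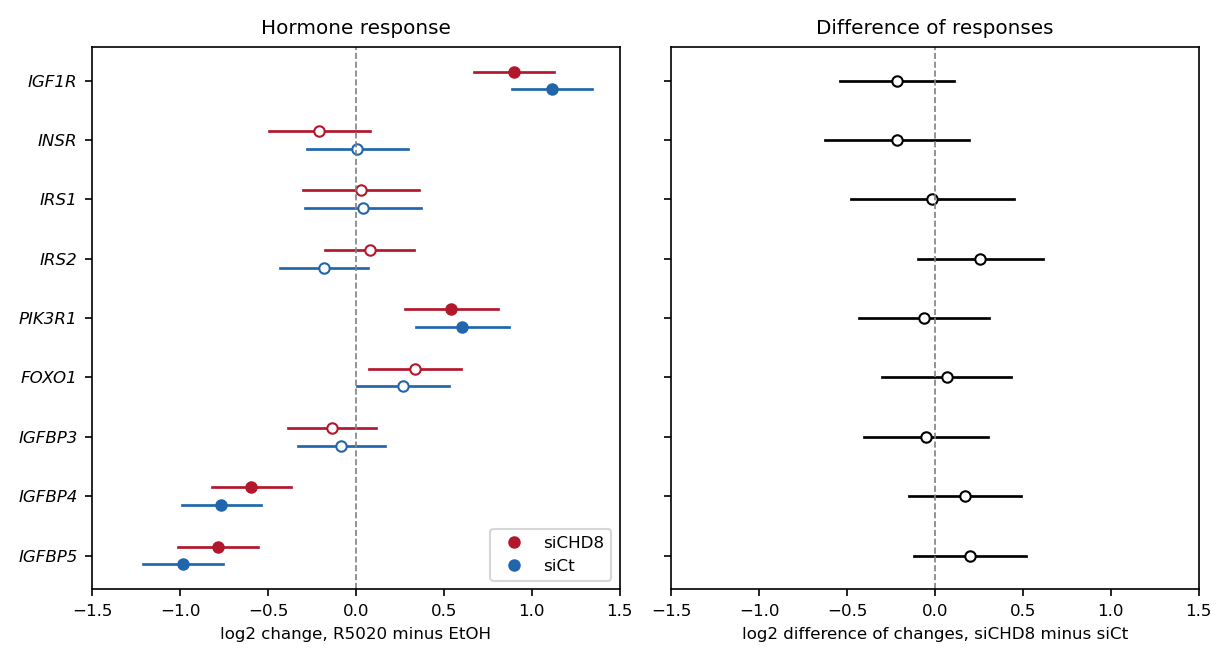
Left, log2 change with R5020 (R5020 minus EtOH) of the 9 members in siCHD8 (red) and siCt (blue). Right, the difference of these changes, siCHD8 minus siCt. Points are estimates of the linear model over 12 arrays, filled where the adjusted p was under 0.05, and lines are 95% intervals. IGF1R and PIK3R1 lie right of zero and IGFBP4 and IGFBP5 left of it in both, and every interval on the right includes zero.

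Between siCHD8 and siCt no member passed the test at a given treatment. With EtOH 0 of 9 members passed in the comparison of siCHD8 with siCt, where 0.292% of all probe sets did (62 probe sets), and with R5020 0 of 9 passed, where 0.189% did (40 probe sets). IRS1 had the largest differences of the 9, -0.28 (95% interval -0.61 to 0.05, adjusted p = 0.492) with EtOH and -0.30 (95% interval -0.63 to 0.03, adjusted p = 0.411) with R5020. Without siCt EtOH replicate 3, the array at 5.37, the difference with EtOH was -0.06. Among the members that moved with R5020, the differences between siCHD8 and siCt with R5020 were -0.17 for IGF1R, 0.09 for PIK3R1, 0.02 for IGFBP4 and 0.12 for IGFBP5.

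By the smallest root mean square difference between the 12 centred log2 values, among 18416 other genes with 1 symbol, the genes closest to IGF1R were ARHGAP17 (0.0705), DHCR7, the last enzyme of cholesterol synthesis (0.0847), and CA12, a carbonic anhydrase (0.0859). Over all genes the median of this distance to IGF1R was 0.564. The genes closest to IGFBP5 were FZD4, a Wnt receptor (0.0817), SHANK2 (0.0867) and the phosphatase gene SSH3 (0.0991), where the median was 0.465. Both members were chosen as those with the largest range of the 4 condition means. The measure follows the hormone change, which was 1.14, 1.05 and 0.96 in siCt for ARHGAP17, DHCR7 and CA12, and -0.90, -0.98 and -0.91 for FZD4, SHANK2 and SSH3.

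Of the 58 other genes of the pathway listed, 50 had a probe set of their own. With R5020, 8 rose, 5 fell and 37 did not pass in siCHD8, and 9 rose, 6 fell and 35 did not pass in siCt, the called shares of all probe sets being those given above. The median change was 0.04 in siCHD8 and -0.09 in siCt. INS, IGF2, IGFBP6 and SGK3 share their probe sets with other symbols, and the remaining listed genes are not analysed here. The plot of the pathway list orders the genes by role.

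At the receptor, GRB10, an adaptor that binds and restrains both receptors, rose by 1.17 in siCHD8 and 1.19 in siCt (SE 0.15, adjusted p = 4.97e-05 and 3.44e-05). GRB2, the adaptor that links receptors to RAS, rose by 0.85 in siCHD8 and 1.13 in siCt, and SOS1, the RAS exchange factor it carries, by 0.60 and 0.66 (adjusted p = 0.0177 and 0.00823). In siCHD8 the SOS1 call was lost without siCHD8 EtOH replicate 2 (adjusted p = 0.0687) or 3 (0.0695), without siCHD8 R5020 replicate 2 (0.0708) or 3 (0.0584), and with all probe sets (0.0509). GAB1, a docking protein for PI3K, had a change of -0.97 in siCHD8 and -0.64 in siCt. Its dimmer second probe set, 8102982, had a change of -0.31 in siCHD8, which was not called (adjusted p = 0.0943), and fell by 0.47 in siCt (adjusted p = 0.00947). So 3 of 11 adaptors and receptor-level regulators rose and 1 fell in siCHD8, while in siCt 3 rose and 2 fell, where 6.04% of all probe sets were called higher and 5.43% lower in siCHD8, and 8.1% and 6% in siCt. The second to fall in siCt was SH2B1, an adaptor of both receptors, at -0.52 (adjusted p = 0.0383), named after its value was seen. Its call was lost in 8 of 22 other settings, among them without siCt R5020 replicate 1 (0.0824), 2 (0.0987) or 3 (0.101) and without siCt EtOH replicate 3 (0.152).

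In the PI3K group, PIK3R3, another regulatory subunit, had a change of -1.13 in siCHD8 and -0.83 in siCt (SE 0.14, adjusted p = 6.88e-05 and 9.09e-04), opposite in sign to PIK3R1. PDPK1, the kinase that activates AKT, rose by 1.11 in siCHD8 and 1.02 in siCt (SE 0.13, adjusted p = 2.45e-05 and 4.68e-05). It has 4 probe sets, of which 2 hold identical values, and only the 2 with the highest mean passed. Of the 9 genes of the TOR branch, none passed in siCt, where 14.1% of all probe sets did. In siCHD8 1 passed (RICTOR, -0.41), near the 11.5% of all probe sets, and so no result about the branch.

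FOXO4, a sister of FOXO1, rose by 1.67 in siCHD8 and 1.496 in siCt (SE 0.15, adjusted p = 1.32e-06 and 3.67e-06). SLC2A1, the glucose transporter GLUT1, rose by 0.98 in siCHD8 and 1.38 in siCt (SE 0.10, adjusted p = 8.12e-06 and 2.31e-07). Of the binding proteins and proteases other than the members, 1 of 8 passed in each background, near the 11.5% and 14.1% of all probe sets in siCHD8 and siCt, and so no result about the group. In siCHD8 this was STC1, an inhibitor of PAPPA, at -1.14, with -0.40 (adjusted p = 0.0819) in siCt. In siCt it was IGFALS, which forms a complex with IGFBP3, at -0.52, with 0.29 (adjusted p = 0.255) in siCHD8. RICTOR, STC1 and IGFALS are named after their values were seen. The RICTOR call was lost without siCHD8 EtOH replicate 1 (adjusted p = 0.0931) and without siCHD8 R5020 replicate 1 (0.0761), 2 (0.0614) or 3 (0.112), with median centring (0.0576) and with all probe sets (0.0546). That of IGFALS was lost without siCt EtOH replicate 3 (0.0707) and without siCt R5020 replicate 2 (0.0585) or 3 (0.0927), and with all probe sets (0.0542). The difference of responses was not called for any of the 50.

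**Figure D3:**
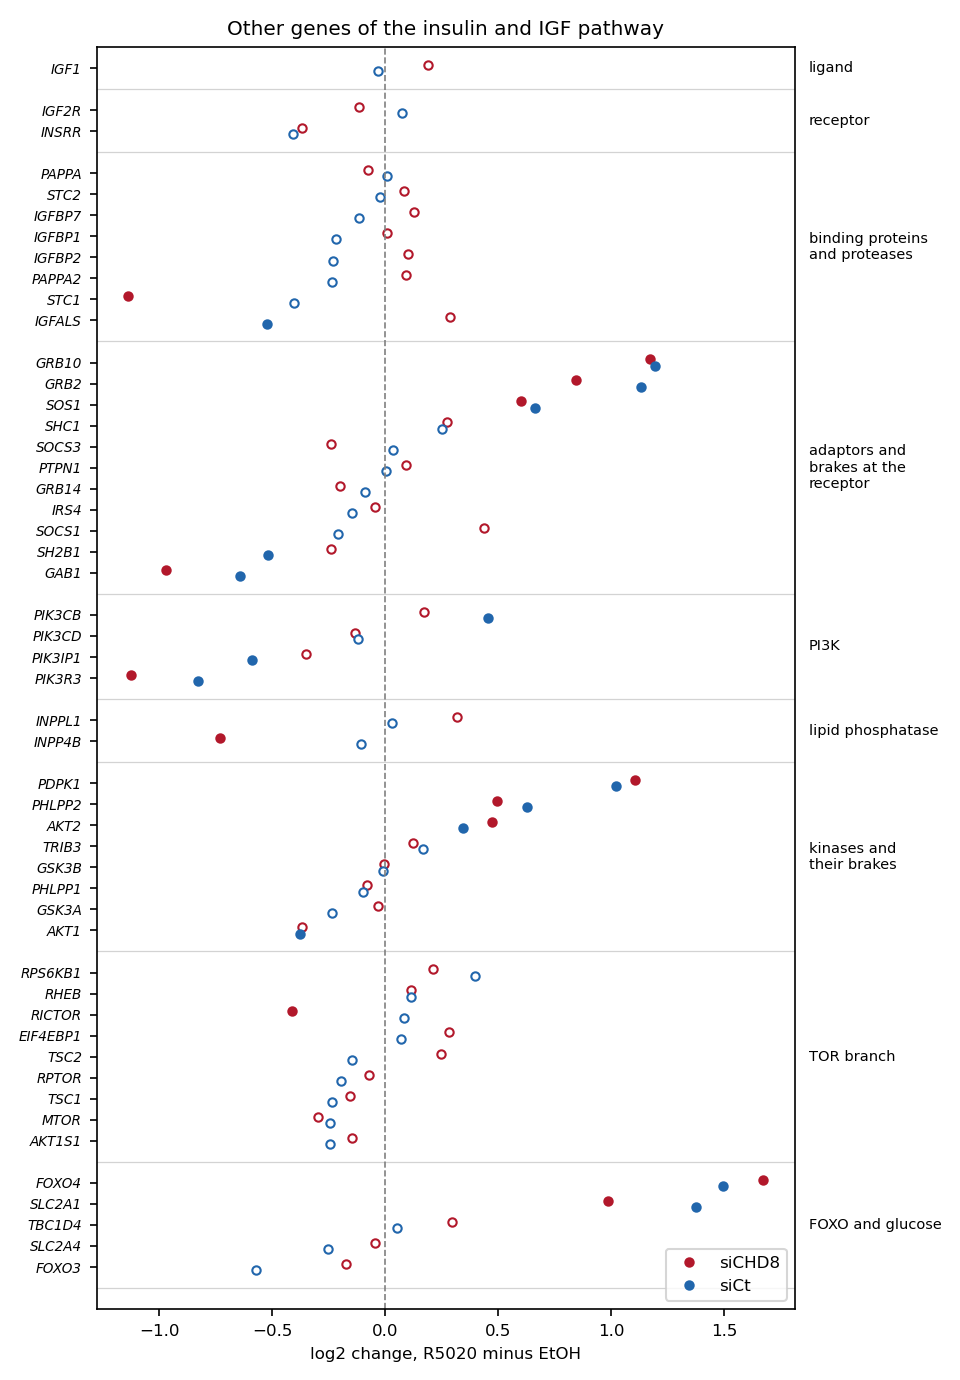
Log2 change with R5020 (R5020 minus EtOH) of the 50 other pathway genes with a probe set of their own, in siCHD8 (red) and siCt (blue), grouped by role and ordered by the siCt change. Filled points passed an adjusted p of 0.05. In siCt FOXO4 and SLC2A1 lie farthest to the right, and GAB1 and PIK3R3 lie on the left in both.

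With EtOH, 1 of the 50 passed between siCHD8 and siCt, where 0.292% of all probe sets did. This was STC2, also an inhibitor of PAPPA, at -0.67 (SE 0.12, adjusted p = 0.0366). With R5020 0 of 50 passed (0.189% of all probe sets). STC2 was named after its value was seen, and its adjusted p lay above 0.05 in 15 of 22 other settings.

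Target genes of FOXO factors, 18 of which were measured, moved both ways with R5020. In siCHD8, 5 rose, 6 fell and 7 did not pass, and in siCt 5 rose, 5 fell and 8 did not pass, where 11.5% of all probe sets tested passed in siCHD8 (6.04% higher, 5.43% lower) and 14.1% in siCt (8.1% higher, 6% lower). The median change was -0.05 in siCHD8 and -0.07 in siCt, against -0.02 and -0.05 over all probe sets tested. SOD2, a mitochondrial superoxide dismutase, rose by 1.43 in siCHD8 and 2.20 in siCt (SE 0.14), and PDK4, a kinase that shuts down pyruvate dehydrogenase, by 2.29 and 2.02 (SE 0.14). BCL6, a transcriptional repressor, rose by 1.04 in siCHD8 and 0.74 in siCt. TNFSF10, which encodes the death ligand TRAIL, was lower, with log2 changes of -2.00 in siCHD8 and -1.59 in siCt (SE 0.21). All of these passed an adjusted p of 0.05 (limma). SOD2 was also lower in siCHD8 than in siCt with R5020, by a difference of -0.86 (adjusted p = 0.0237), while its difference of responses, -0.76, had an adjusted p of 0.49. The SOD2 call between siCHD8 and siCt did not hold with all probe sets (0.0882) or with the replicate block (0.0735), and it was lost without any 1 of the 6 arrays compared: without siCHD8 R5020 replicate 1, 2 or 3 the adjusted p was 0.115, 0.111 or 0.0935, and without siCt R5020 replicate 1, 2 or 3 it was 0.126, 0.115 or 0.122.

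**Figure D4:**
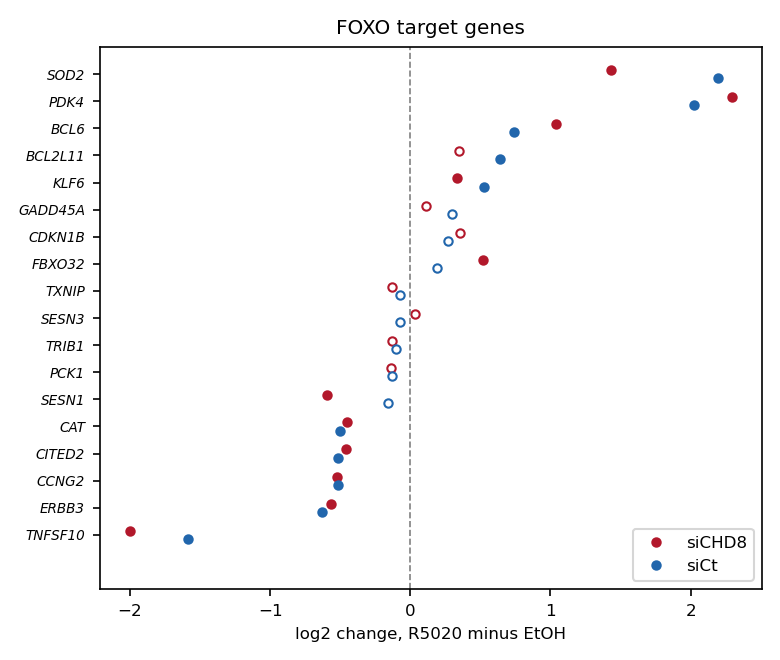
Log2 change with R5020 (R5020 minus EtOH) of 18 target genes of FOXO factors in siCHD8 (red) and siCt (blue), ordered by the siCt change, filled where the adjusted p was under 0.05. SOD2, PDK4 and BCL6 lie on the right and TNFSF10 on the left in both.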

How the data were processed

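RNA was measured on Affymetrix Human Gene 1.0 ST arrays. The authors summarised the scans with RMA, which corrects background and normalizes between arrays, and deposited log2 intensities. Software versions: not given in the sources used here. The values were used as they stand. Symbols came from the platform annotation (12083 of 33297 probe sets have none and were left out), and no column was left unused. Using limma 3.58.1 under R 4.3.3, condition means were estimated from the 12 arrays together, without a block, and contrasts were moderated with eBayes and adjusted by Benjamini-Hochberg across 21214 probe sets. The scripts were tested on simulated data. Motifs were searched in RefSeq promoter windows of GRCh38.p14 with Python 3.11.15 and pandas 2.3.3, and plots use matplotlib 3.10.9. Members and gene lists were chosen with earlier results of these data known. Named are all 9 members, CHD8, the 12 list genes called for the hormone with the largest change in siCt, and the 3 genes closest to each of 2 members; others are said to be named after their values were seen. The motif CTGTNC was added later. Alternatives were another normalization (median centring, quantile), other sets of probe sets (dim ones out, all, 1 per gene, the mean per gene), another variance model, array weights, separate fits, a replicate block, other limits and leaving out single arrays. ChIP and RT-qPCR measurements were not used here.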

Additional observations from a re-analysis of the deposited data

How the results depend on the processing

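The 4 members called for R5020 were called in both siRNA backgrounds under every setting that keeps the 0.05 limit, with changes in siCt of 1.02 to 1.199 for IGF1R, 0.45 to 0.69 for PIK3R1, -0.83 to -0.68 for IGFBP4 and -1.06 to -0.90 for IGFBP5. In 28 cases a difference that was not called changed sign, and the cause was not tested. With median centring these were IGFBP4 (-0.058) and FOXO1 (-0.0446) between siCHD8 and siCt with R5020, and with array weights the difference of responses of PIK3R1 (0.0541). With each array left out in turn, the R5020 change in siCHD8 ranged from -0.0200 to 0.120 for IRS1 and from -0.048 to 0.142 for IRS2, and in siCt from -0.0726 to 0.26 for IRS1, from -0.116 to 0.185 for INSR and from -0.16 to 0.0416 for IGFBP3. Between siCHD8 and siCt with EtOH it ranged from -0.131 to 0.0301 for FOXO1, from -0.15 to 0.00244 for IGFBP5 and from -0.175 to 0.015 for IRS2, and with R5020 from -0.0194 to 0.0467 for IGFBP4 and from -0.0262 to 0.105 for FOXO1. The difference of responses ranged from -0.233 to 0.0998 for IRS1, from -0.176 to 0.0249 for IGFBP3 and from -0.147 to 0.0893 for PIK3R1. CHD8 passed 0.05 in 4 of 22 other settings with EtOH and in 8 of 22 with R5020.

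The pathway list had 1 call between siCHD8 and siCt with EtOH, and 0 with median centring, all probe sets or the stricter limits, and 0 to 1 with an array left out. With R5020 it had 0 calls, 2 with median centring and 0 to 2 with an array left out. No pairing of the arrays by replicate number was evident (same-numbered arrays correlated from -0.25 to 0.20 in their deviations, 5 of 12 arrays matching their own number best). With so few arrays this check cannot exclude a pairing. With the replicate block 4 of 9 members were called for R5020 in each siRNA background and 0 otherwise, as without the block. The settings for single list genes, the second IGF1R probe set and the CHD8 response to R5020 were added after the data were seen: in 111 cases a call was lost and in 1074 it was kept. The ratio rule was met by 0 of 9 members with linear folds and by 7 with log2 changes divided, also added later. The number of arrays limits what is detectable; no detection measure was used.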
